A study of Mus musculus with 18 samples.

Results

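The genes described here are 10 genes known for holding resting lymphocytes out of the cell cycle: the transcription factors Foxo1 and Foxp1, the cyclin-dependent kinase (CDK) inhibitors Cdkn1b and Cdkn2d, the antiproliferative factors Btg1, Btg2 and Tob1, the pocket protein Rbl2, the atypical cyclin Ccng2 and the arrestin-domain protein Txnip. They were chosen by name, with earlier results of these data known. Of the 10, 9 had a row in the count tables and all 9 passed the filter on low counts, among 10581 genes tested in the tables of the 129 allele and 10365 in those of the Cast allele. Btg1 was not analysed here.

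The series compared RNA from female mouse fibroblasts and splenic B cells, and 6 of its 18 samples are used here. All 6 were CD23+ B cells from the spleen of female F1 mice of 129S1 and Cast parents that carried 1 mutant Xist allele (Xist+/-), so that in naive and stimulated cells alike the inactive X was always the Cast copy. The naive group held 3 untreated samples. The stimulated group held 3 samples treated in culture with 1 µM CpG for 24 h. None of the 6 samples is labelled as cultured without CpG, so effects of CpG and of culture cannot be told apart. A change with CpG, or a response to CpG, here means the difference between these groups. CpG is a DNA ligand of Toll-like receptor 9 that drives B cells into division. Ages, and whether replicates came from separate mice, are not given in the sources used here, so p-values measure only the spread between these samples, which may be technical. Each sample has a table of reads assigned to the 129 genome and another for the Cast genome. The tables of a sample come from the same library, so the alleles are not independent replicates.

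A resting B cell is kept in G0 by active programmes. FOXO1 turns on genes of the naive state, and phosphorylation downstream of growth signals sends FOXO1 out of the nucleus. FOXP1 represses genes of activation. p27 (from Cdkn1b) and p19INK4d (from Cdkn2d) inhibit the CDKs of G1, while p130 (from Rbl2) joins E2F4 and the MuvB proteins in the DREAM complex, which silences cell cycle genes. BTG and TOB proteins recruit the CCR4-NOT deadenylase and shorten the lives of mRNAs, cyclin G2 is tied to cell cycle arrest, and TXNIP binds thioredoxin and limits glucose uptake.

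Promoters of 4 of the genes are shown because Btg2 and Txnip had the deepest falls with CpG and because the reads of Cdkn1b and Rbl2 were split most unevenly between the alleles. Each is the 250 bases before the annotated start from RefSeq (GRCm38.p6), the reference C57BL/6J sequence and so that of neither parent, at chr1:134079156-134079405 (minus strand, Btg2), chr3:96557707-96557956 (plus, Txnip), chr6:134920151-134920400 (plus, Cdkn1b) and chr8:91069807-91070056 (plus, Rbl2). Capitals mark a CCAAT box (CCAAT, or ATTGG on the other strand) or a forkhead core (GTAAACA, or TGTTTAC).
Btg2: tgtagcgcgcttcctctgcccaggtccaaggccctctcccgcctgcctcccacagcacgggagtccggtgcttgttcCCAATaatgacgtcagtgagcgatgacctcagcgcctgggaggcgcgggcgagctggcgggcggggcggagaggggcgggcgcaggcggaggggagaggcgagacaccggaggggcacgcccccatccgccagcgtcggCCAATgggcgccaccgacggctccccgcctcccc
Txnip: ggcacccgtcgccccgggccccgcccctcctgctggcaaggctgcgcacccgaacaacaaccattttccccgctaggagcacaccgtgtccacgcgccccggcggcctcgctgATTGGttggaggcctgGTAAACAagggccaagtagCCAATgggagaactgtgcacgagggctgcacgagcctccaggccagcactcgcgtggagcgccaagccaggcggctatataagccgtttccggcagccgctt
Cdkn1b: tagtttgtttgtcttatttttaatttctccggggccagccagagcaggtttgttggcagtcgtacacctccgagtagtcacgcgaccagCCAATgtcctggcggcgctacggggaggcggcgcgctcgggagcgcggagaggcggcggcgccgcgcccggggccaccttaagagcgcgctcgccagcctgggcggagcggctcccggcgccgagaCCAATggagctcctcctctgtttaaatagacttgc
Rbl2: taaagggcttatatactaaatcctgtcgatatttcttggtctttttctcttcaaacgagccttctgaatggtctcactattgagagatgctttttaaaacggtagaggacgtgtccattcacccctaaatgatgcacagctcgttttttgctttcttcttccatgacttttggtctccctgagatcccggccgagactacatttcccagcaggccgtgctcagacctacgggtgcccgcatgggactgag
The letters GTAAACA, which FOXO and FOXP factors can bind, occurred on either strand in 2 of the 12 windows annotated for the 10 genes (Txnip, 121 bases before the start, and Btg1), and in 3.17% of all 32841 promoter windows of that length. CCAAT occurred in 8 of the 12 and in 33.9% of all windows, and the E-box CACGTG in 0 of the 12 and in 6.02% of all. The forkhead letters of Txnip lie between its CCAAT boxes, which start 137 and 102 bases before the gene. The Rbl2 window held none of the 3 motifs. A match is a description of the letters, and binding was not measured.

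In stimulated cells 8 of the 9 genes were lower on each allele and 0 were higher. Called genes are those with an adjusted p under 0.05 in edgeR's quasi-likelihood test, and by that rule 27% of all genes tested on the 129 allele and 31.5% of those tested on Cast were called lower. The share called higher was 28.2% of the 129 genes and 30.7% of the Cast genes. For the same 8 genes every stimulated sample lay below every naive sample on both alleles, an arrangement held by 32.2% of all 129 genes and 34.8% of all Cast genes. The median log2 fold change of the 9 genes was -1.60 on the 129 allele and -1.78 on the Cast allele, beside -0.01 and -0.04 over all genes tested. The 8 B cell markers described below had medians of -1.98 and -1.90, so a fall of this size was not particular to the 9 genes. Levels are given as CPM, the deposited counts scaled by TMM to a common library total of the reads assigned to genes of that strain. Because only reads that tell the strains apart are counted and no gene lengths of the strain annotations were used, levels are compared within a gene and not between genes. In bulk RNA a fall in the number of cells of a type and a fall in RNA per cell cannot be told apart.

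**Figure D1:**
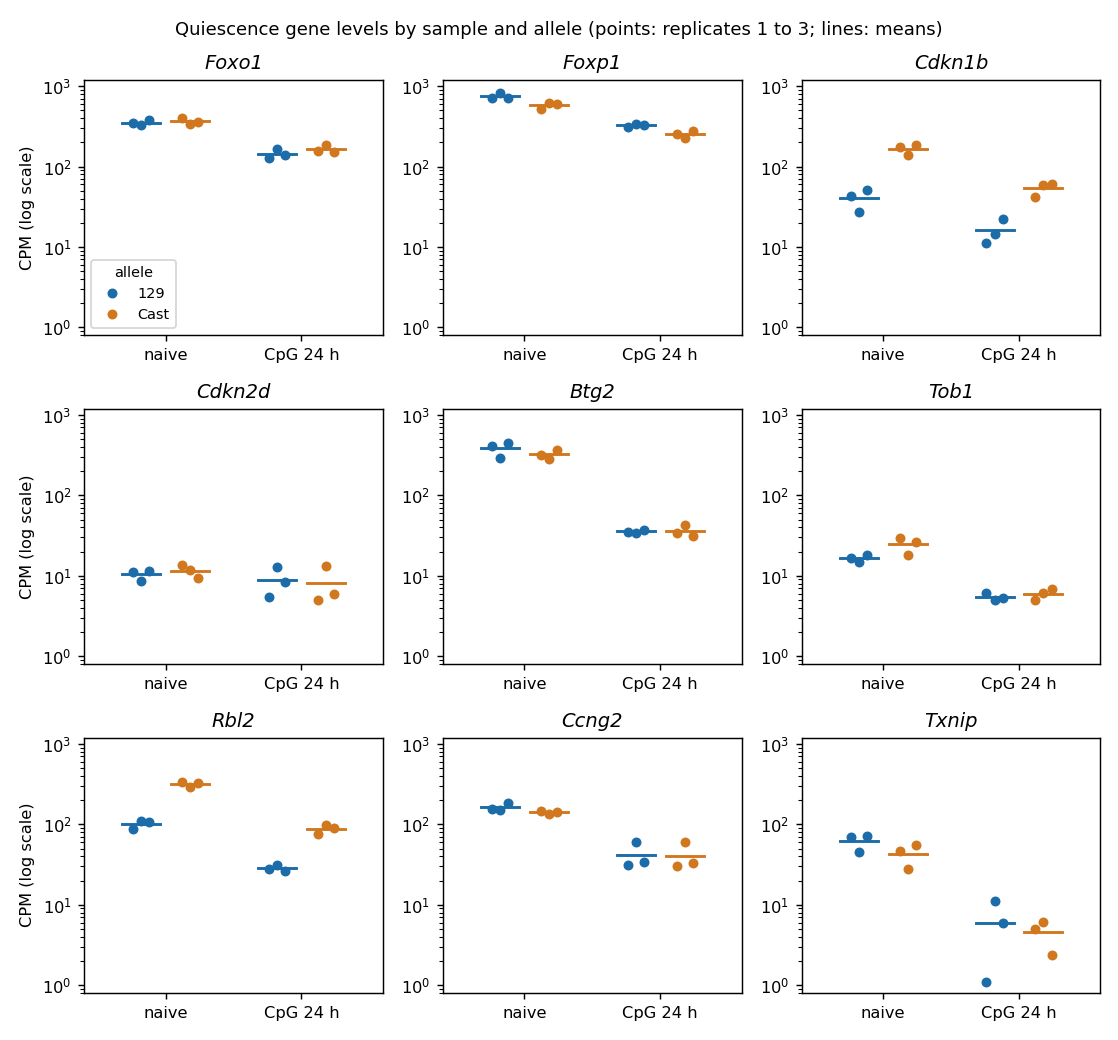
Level of each gene in every sample, in CPM on a log axis, for naive and CpG-treated cells (blue, 129 tables; orange, Cast tables; points, samples; lines, group means). In every panel except Cdkn2d the stimulated points of an allele lie below its naive points.

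Total reads assigned to genes ranged from 1987266 to 2928236 per sample in the 129 tables and from 2465073 to 3321753 in the Cast tables. All 8 B cell markers examined were detected, with a summed level of 12606 to 15011 CPM in naive samples and 2985 to 3901 CPM in stimulated samples of the 129 tables, and all 8 were called lower in both sets, although Pax5 lost its call in 4 of 6 fits that left out a sample in each (adjusted p up to 0.104 and 0.139). Of 16 macrophage markers 15 were tested and all 15 were called lower: their summed level was 3656 to 7545 CPM in naive and 25.9 to 36 CPM in stimulated samples on the 129 allele, and 2868 to 6186 CPM and 21.9 to 31.5 CPM on the Cast allele. The stimulated samples had 0 reads of Cd163 and Fcna in the 129 tables and of Axl, C1qa, Fcna and Mertk in the Cast tables. The 8 T cell markers summed to 49.5 to 56.7 CPM in naive and 5.03 to 8.86 CPM in stimulated samples on the 129 allele. Of the naive sums, Cd4 alone gave 36.1, 19.9 and 36.1 CPM in replicates 1 to 3. The neutrophil and monocyte markers reached at most 27.1 CPM in the 129 tables. All 8 proliferation markers tested on the 129 allele rose, from a summed 296 to 560 CPM to between 7345 and 10585 CPM. The part of other cell types in the falls described below was not tested.

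Foxo1 (Ensembl strain identifier MGP_129S1SvImJ_G0027202, chromosome 3), a transcription factor that B cells need to keep naive-state genes on, fell on both alleles. Its 129 allele had 346, 324 and 374 CPM in naive replicates 1 to 3 and 129, 164 and 137 CPM in the stimulated ones. The Cast allele had 399, 338 and 357 CPM against 157, 186 and 152 CPM. Stimulated cells thus kept 41.2% of the naive mean on the 129 allele and 45.3% on the Cast allele. The log2 fold change was -1.28 (SE 0.13, adjusted p = 0.000152) on the 129 allele and -1.14 (SE 0.13, adjusted p = 6.06e-05) on the Cast allele.

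Foxp1 (MGP_129S1SvImJ_G0031080, chromosome 6), a forkhead factor that represses genes of activation in quiescent lymphocytes, fell by nearly the same amount. Naive samples had 718, 814 and 705 CPM on the 129 allele and 526, 624 and 593 CPM on the Cast allele. Stimulated samples had 314, 336 and 329 CPM and 257, 227 and 276 CPM, all below the naive range. This was a log2 fold change of -1.19 (SE 0.11, adjusted p = 9.20e-05) and -1.20 (SE 0.13, adjusted p = 4.69e-05). Against a minimum log2 fold change of 1, rather than 0, Foxp1 lost its call on both alleles (adjusted p = 0.0631 and 0.0819) and Foxo1 lost it on the Cast allele (0.155). Gm20696 is a transcript annotated in GRCm38 on the same strand within Foxp1. It had 451 to 604 reads per naive table and 68 to 98 per stimulated table. How reads that overlap both were counted is not given in the sources used here, and their part in the Foxp1 change was not tested.

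Cdkn1b (MGP_129S1SvImJ_G0031410, chromosome 6) encodes p27, the inhibitor of cyclin E and cyclin A kinases. Its 129 allele fell from 43.5, 27.4 and 51.6 CPM to 11.1, 14.5 and 22.3 CPM, and its Cast allele from 176, 140 and 184 CPM to 41.9, 58.9 and 60.7 CPM. Naive replicate 2 was the lowest naive sample on both alleles. Its log2 fold change was -1.35 (SE 0.34, adjusted p = 0.0115) on the 129 allele, where the stimulated samples held only 31 to 64 reads, and -1.63 (SE 0.18, adjusted p = 4.48e-05) on the Cast allele. Against a minimum log2 fold change of 1 the 129 call was lost (adjusted p = 0.194).

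Cdkn2d (MGP_129S1SvImJ_G0034448, chromosome 9), the inhibitor of the cyclin D kinases CDK4 and CDK6, was the exception. The 129 allele had 11.2, 8.73 and 11.5 CPM in naive and 5.39, 12.8 and 8.38 CPM in stimulated samples. The Cast allele had 13.6, 11.9 and 9.45 CPM against 5.04, 13.3 and 5.92 CPM. The groups overlapped on both alleles because stimulated replicate 2 stood within or above the naive range. The log2 fold change was -0.24 (95% interval -1.13 to 0.65, adjusted p = 0.618) and -0.53 (-1.43 to 0.37, adjusted p = 0.273). With 15 to 43 reads per sample and allele, the direction is not resolved. Without stimulated replicate 2 the values were -0.61 (adjusted p = 0.229) on the 129 allele and -1.06 (adjusted p = 0.0284) on the Cast allele, the latter past the threshold. Without stimulated replicate 1 the 129 value was 0.03.

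Btg2 (MGP_129S1SvImJ_G0016497, chromosome 1), an antiproliferative gene that is also induced rapidly by stress and receptor signals, had the deepest fall on the 129 allele. Naive samples had 417, 290 and 448 CPM and stimulated samples 35.2, 34.4 and 37.3 CPM. On the Cast allele 321, 286 and 363 CPM fell to 34.0, 43.2 and 31.1 CPM. About 9.27% of the naive mean was left on the 129 allele and 11.2% on the Cast allele, with log2 fold changes of -3.43 (SE 0.19, adjusted p = 1.66e-05) and -3.16 (SE 0.17, adjusted p = 1.16e-06). Only 3.70% of tested 129 genes and 4.63% of tested Cast genes had a lower log2 fold change.

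Tob1 (MGP_129S1SvImJ_G0018950, chromosome 11), which like Btg2 links mRNAs to the deadenylase, fell from 16.8, 15 and 18.1 CPM to 6.11, 4.96 and 5.24 CPM on the 129 allele. The Cast allele fell from 29.8, 18.4 and 26.2 CPM to 5.04, 6.17 and 6.81 CPM. Log2 fold changes were -1.60 (SE 0.27, adjusted p = 0.00189) and -2.03 (SE 0.28, adjusted p = 0.000212). The stimulated samples held only 14 to 23 reads per allele.

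Rbl2 (MGP_129S1SvImJ_G0033929, chromosome 8), the pocket protein that predominates in resting cells, fell by the same factor on both alleles although the alleles differed in level. The 129 allele went from 88.2, 109 and 108 CPM to 27.7, 30.8 and 26.5 CPM. The Cast allele went from 332, 289 and 331 CPM to 75, 98.4 and 89.7 CPM. Log2 fold changes were -1.84 (SE 0.15, adjusted p = 6.30e-05) and -1.85 (SE 0.14, adjusted p = 5.09e-06), which left 27.9% and 27.7% of the naive means. Aktip, which overlaps Rbl2 on the opposite strand, had 13 to 45 reads per table beside 76 to 882 for Rbl2, and the use of strand in counting is not given in the sources used here.

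Ccng2 (MGP_129S1SvImJ_G0029761, chromosome 5), a cyclin induced in arrested cells, fell from 156, 151 and 182 CPM to 30.9, 60.6 and 33.9 CPM on the 129 allele. On the Cast allele it fell from 146, 133 and 143 CPM to 30.3, 59.5 and 32.6 CPM. Stimulated replicate 2 was the highest stimulated sample on both alleles. The log2 fold change was -1.96 (SE 0.26, adjusted p = 0.000656) and -1.78 (SE 0.24, adjusted p = 0.000182).

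Txnip (MGP_129S1SvImJ_G0027619, chromosome 3), the brake on glucose uptake and thioredoxin, fell from 69.7, 45.7 and 70.7 CPM to 1.08, 11 and 5.93 CPM on the 129 allele. The Cast allele fell from 46.7, 27.4 and 54.5 CPM to 5.04, 6.17 and 2.37 CPM. The log2 fold change was -3.36 (SE 0.63, adjusted p = 0.00445) and -3.23 (SE 0.38, adjusted p = 7.43e-05). The error on the 129 allele was the widest of the 9 genes, with 3, 31 and 17 reads in the stimulated samples. In edgeR's test the value there was -2.85 without stimulated replicate 1 (adjusted p = 0.00141) and -4.12 without stimulated replicate 2 (adjusted p = 0.00414). Gm15441, annotated on the strand opposite to Txnip, was listed with 0 reads in all 12 tables.

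**Figure D2:**
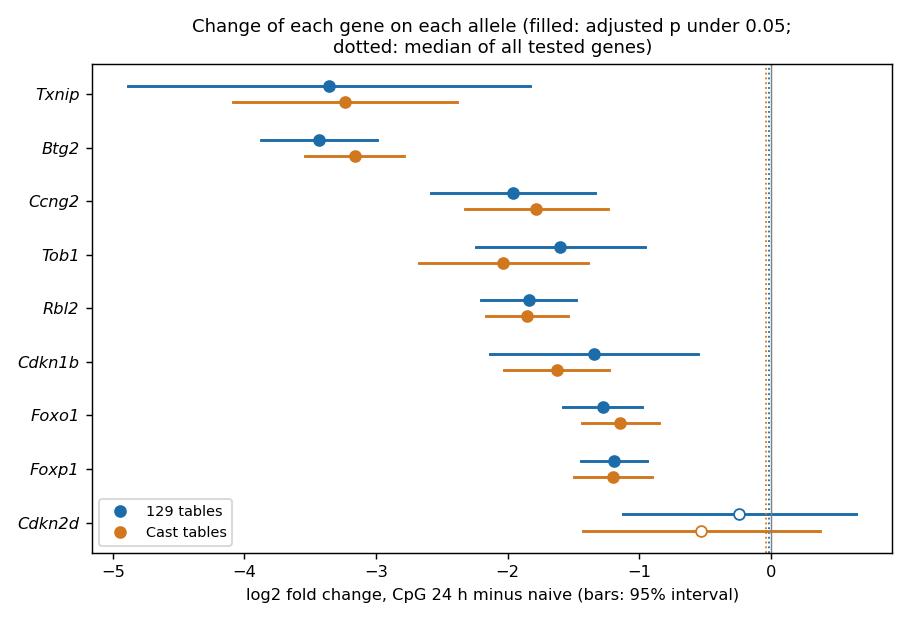
Log2 fold change of each gene, CpG 24 h minus naive, with its 95% interval in the 129 tables (blue) and the Cast tables (orange), ordered by the change with both alleles summed. Btg2 at -3.43 and -3.16 and Txnip at -3.36 and -3.23 stand lowest, and the intervals of Cdkn2d, drawn with open points, span 0.

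With the reads of both alleles summed, the order from the deepest fall was Txnip (log2 fold change -3.27), Btg2 (-3.26), Ccng2 (-1.84), Tob1 (-1.83), Rbl2 (-1.82), Cdkn1b (-1.54), Foxo1 (-1.17), Foxp1 (-1.16) and Cdkn2d (-0.37). Of the 8 pairs of neighbours in this order, the per-sample log ratio separated naive from stimulated samples only between Btg2 and Ccng2. The exact permutation test gave a two-sided p of 0.1, the smallest that 3 against 3 samples allow. The order was set from these same samples and the 8 tests were not adjusted, so this p cannot decide whether those 2 genes differ. For the other 7 pairs the samples overlapped, so their order is not resolved.

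The samples within a group moved together for several of the genes. Naive replicate 2 was the lowest naive sample for Btg2, Cdkn1b, Txnip, Tob1, Foxo1 and Ccng2 on both alleles and the highest for Foxp1. The same sample had the lowest summed level of 18 early response genes in the 129 tables (960 CPM, beside 1513 and 1835), the lowest of the macrophage markers (3656 CPM, beside 7545 and 4430) and the highest of the proliferation markers (560 CPM, beside 398 and 296). Stimulated replicate 2 was the highest stimulated sample for Ccng2, Cdkn2d, Txnip, Foxo1 and Rbl2 on both alleles. It also had the highest proliferation sum, at 10585 CPM beside 7859 and 7345 on the 129 allele. The part of these differences in the genes' values was not tested. Without either sample, the calls of the 8 lower genes were kept.

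The alleles were then compared within each state, as the share of a gene's strain-assigned reads that came from Cast, and tested as a log2 ratio of Cast to 129 over 10089 autosomal genes. Over all autosomal genes the share was 51.9% to 53.6% per sample, and the median gene had a log2 ratio of 0.12 in each state. Of the 9 genes, 3 were called toward Cast in naive cells and 3 in stimulated cells (Cdkn1b, Rbl2 and Foxo1 in each), where 14.7% of all genes were called toward Cast in naive cells and 14.8% in stimulated cells. None of the 9 was called toward 129 (0 in each state), where 9.49% of all genes were in naive cells and 9.62% in stimulated cells. With only 9 genes, no excess toward Cast and no lack toward 129 is read from these counts.

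Cdkn1b had the most uneven split. Cast gave 466 of 567 reads, 389 of 455 and 428 of 531 in the naive samples, a share of 82.8% ± 2.50 (SD, n = 3). In stimulated samples it gave 133 of 164, 191 of 232 and 205 of 269, a share of 79.9% ± 3.24 (SD, n = 3). The log2 ratio was 2.27 (SE 0.15, adjusted p = 5.10e-05) in naive and 1.99 (SE 0.16, adjusted p = 9.64e-05) in stimulated cells. In naive cells 4.87% of genes had a higher ratio.

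Rbl2 was split almost as unevenly, with 78.2% ± 2.91 of its naive reads (SD, n = 3) and 78.0% ± 2.25 of its stimulated reads (SD, n = 3) from Cast. Its log2 ratios were 1.85 (SE 0.12, adjusted p = 4.53e-05) and 1.83 (SE 0.12, adjusted p = 4.58e-05), and 6.81% of genes had a higher ratio in naive cells. How many bases of each gene differ between the strains, and how reads were assigned, bear on such shares and are not given in the sources used here; their part was not tested.

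Foxo1 leaned slightly to Cast, from which 54.7% ± 2.06 (SD, n = 3) of naive and 57.1% ± 0.833 (SD, n = 3) of stimulated reads came. The log2 ratio was 0.27 (SE 0.07, adjusted p = 0.0260) and 0.42 (SE 0.07, adjusted p = 0.00426). The naive call was lost without naive replicate 1 (0.21, adjusted p = 0.142), without naive replicate 2 (0.28, adjusted p = 0.0952) and when each strain's tables were scaled by their own total (0.09, adjusted p = 0.431). Against a minimum log2 ratio of 0.5 it was lost in both states (adjusted p = 1.0 in each). Under that scaling Foxp1 was called toward 129, with a ratio of -0.34 (adjusted p = 0.0144) in naive and -0.27 (adjusted p = 0.0376) in stimulated cells. Tob1 in naive cells had a share of 62.8% ± 4.16 (SD, n = 3) and a ratio of 0.76 that missed the threshold (adjusted p = 0.0527).

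**Figure D3:**
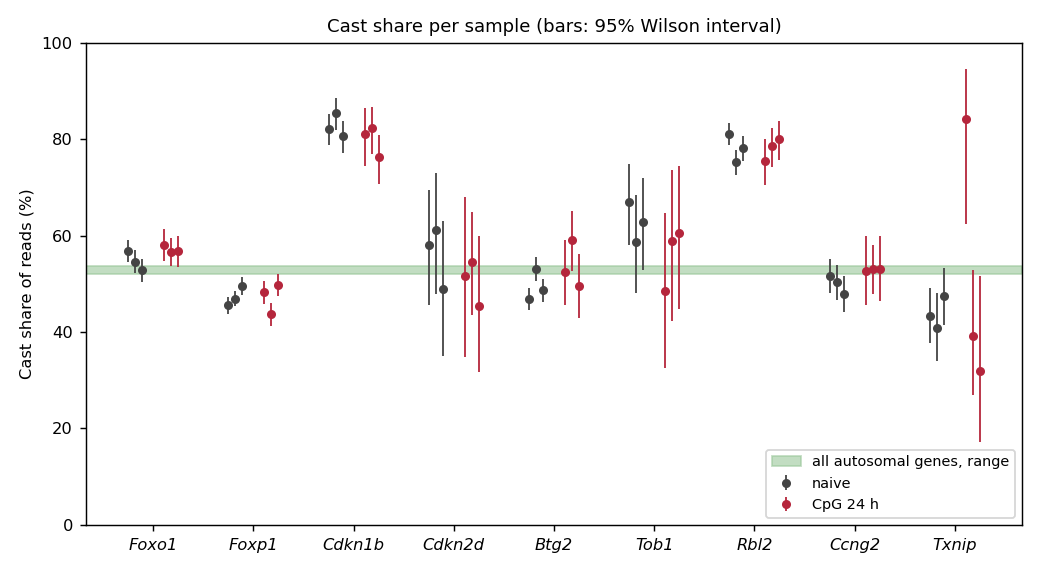
Cast share of each gene's strain-assigned reads in every sample (grey, naive; red, CpG 24 h; bars, 95% Wilson intervals, which cover counting error only; green band, the range over all autosomal genes, 51.9% to 53.6%). Cdkn1b and Rbl2 lie far above the band in all 6 samples, and the 3 stimulated Txnip points spread widest.

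In edgeR's test no difference between the alleles in the response to CpG was detected for the 9 genes: 0 were called for a change of the ratio, 0 had an unadjusted p under 0.05, and 1.01% of all genes were called. With the replicate number as a block, 785 of all genes rather than 102 were called, and again 0 of the 9. The Cast shares of Ccng2 did not overlap, at 51.7%, 50.3% and 47.8% in naive and 52.7%, 53.0% and 53.1% in stimulated samples. The exact permutation test gave a two-sided p of 0.1, the smallest possible, and 0.54 after adjustment over the 9 genes. How many of all genes separate in this way was not counted, so no difference is read from it. The shares of the other 8 genes overlapped. The precision differed between genes. The change of the log2 ratio was -0.01 (95% interval -0.28 to 0.26) for Foxp1, 0.14 (-0.09 to 0.37) for Foxo1, 0.18 (-0.12 to 0.47) for Ccng2 and 0.24 (-0.16 to 0.64) for Btg2. It was -0.02 (-0.44 to 0.41) for Rbl2 and -0.28 (-0.78 to 0.22) for Cdkn1b. The intervals were wider for Tob1 (-1.26 to 0.43), Cdkn2d (-1.23 to 0.59) and Txnip (-1.37 to 1.94), which had the fewest reads in stimulated cells.

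Close relatives of the genes were called in either direction about as often as all genes. Of 12 relatives tested in the 129 tables, 3 were called higher and 4 lower (median log2 fold change -0.35), and of 12 in the Cast tables, 4 were higher and 5 lower (-0.36). Rbl1 (p107), the pocket protein of cycling cells, rose while Rbl2 fell: from 42.6 ± 9.75 to 137 ± 12.6 CPM on the 129 allele and from 36.9 ± 6.22 to 111 ± 10.4 CPM on the Cast allele (SD, n = 3), a log2 fold change of 1.68 and 1.59 (adjusted p = 0.000236 and 2.99e-05). Rb1, the third pocket protein gene, had log2 fold changes of -0.26 and 0.22, neither called.

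Cdkn2c (p18INK4c), the relative of Cdkn2d, rose from 1.23 ± 0.788 to 21.0 ± 1.23 CPM on the 129 allele (log2 fold change 4.08, adjusted p = 0.000200) and at least 13.5-fold on the Cast allele, where the naive samples held no more than 3 reads each. Ccng1, the relative of Ccng2, rose from 147 ± 3.16 to 207 ± 17.6 CPM on the 129 allele (0.50, adjusted p = 0.00648). On the Cast allele its log2 fold change was 0.45 (adjusted p = 0.0305), and that call was lost with upper-quartile scaling (0.32, adjusted p = 0.104) and in 3 of 6 fits that left out a sample.

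Foxo3, another FOXO factor, fell as Foxo1 did (log2 fold changes -1.44 and -1.54, adjusted p = 5.51e-05 and 9.71e-06). The arrestin-domain relatives of Txnip, Arrdc3 and Arrdc1, fell too, with log2 fold changes of -2.04 and -1.37 on the 129 allele and -2.01 and -1.56 on the Cast allele. Tob2, the relative of Tob1, had log2 fold changes of -0.25 and -0.15 and was not called.

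**Figure D4:**
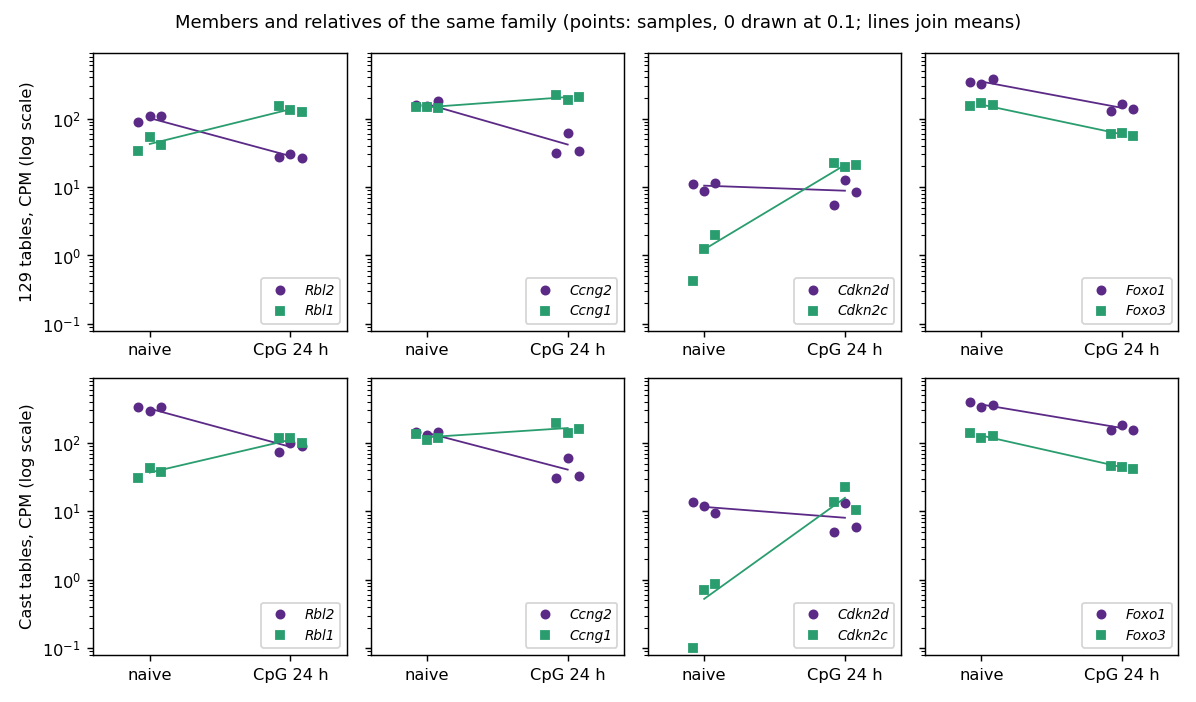
Levels in CPM, on a log axis, of 4 of the genes (purple) and a relative of each (green) in every sample, with lines joining group means, in the 129 tables (top) and the Cast tables (bottom); heights are comparable within a gene, not between genes. Rbl1, Ccng1 and Cdkn2c slope upward, while Rbl2, Ccng2 and Foxo1 with Foxo3 slope downward and Cdkn2d was not called.

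The list of other quiescence genes, like the other lists, was chosen with earlier results of these data known, so its counts are descriptive. Most of its tested genes were lower in stimulated cells. Of 17 tested in the 129 tables, 13 were called lower and 0 higher, with a median log2 fold change of -1.97, and of 18 in the Cast tables, 14 were lower and 0 higher (-2.34). Pik3ip1, an inhibitor of PI3 kinase, fell from 159 ± 93.1 to 2.72 ± 1.26 CPM on the 129 allele and from 157 ± 86.2 to 1.54 ± 1.12 CPM on the Cast allele (SD, n = 3; adjusted p = 0.00119 and 2.44e-05). Zfp36l2, an RNA-binding protein that destabilises mRNAs, fell (log2 fold changes -3.82 and -3.94), as did Sesn1, an inhibitor of mTORC1 signalling (-3.57 and -4.08). Ikzf1, Bach2 and Tsc2 were among the 4 genes not called in each set. Tsc1, counted among the lower genes, lost its call in 5 of 6 fits that left out a sample on each allele (adjusted p up to 0.110 and 0.0944).

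Known FOXO targets were lower in most cases. In the 129 tables, 11 of 17 tested were called lower and 1 higher (median -1.37), and in the Cast tables, 13 of 19 were lower and 0 higher (-1.57). The higher call, Sod2, was lost in 5 of 6 fits that left out a sample, and among the lower Cast calls Il7r was lost in 4 of 6 and Cat in 3 of 6. S1pr1, the receptor that guides lymphocytes out of tissue, fell from 213 ± 85.5 to 10.3 ± 5.54 CPM on the 129 allele and from 661 ± 190 to 30.0 ± 6.45 CPM on the Cast allele (SD, n = 3; adjusted p = 0.000603 and 1.75e-06). These lists share Pik3ip1, Sesn1, Sesn3 and Klf2.

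The partners of p130 moved unevenly. Of 9 DREAM and pocket protein partners tested in the 129 tables, 3 were called higher and 1 lower (median 0.66), and of 10 in the Cast tables, 5 were higher and 2 lower (0.52). Tfdp1, the dimerisation partner of E2F factors, rose from 39.0 ± 8.76 to 618 ± 15.2 CPM on the 129 allele and from 47.4 ± 6.63 to 762 ± 113 CPM on the Cast allele (SD, n = 3; adjusted p = 1.21e-05 and 6.55e-07). E2f4, the E2F of the DREAM complex, rose by log2 1.29 and 1.36. Dyrk1a, the kinase that triggers assembly of the complex, fell (log2 fold changes -0.89 and -0.69, adjusted p = 0.00214 and 0.00829). Lin54, its DNA-binding subunit, rose by 1.12 and 1.25, but on the 129 allele the call was lost without naive replicate 1 or 3 and without stimulated replicate 1 or 3 (adjusted p up to 0.106).

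Subunits and partners of the deadenylase that BTG and TOB proteins recruit had median log2 fold changes of 0.26 over 11 genes (5 higher, 2 lower) in the 129 tables and 0.36 over 12 genes (5 higher, 1 lower) in the Cast tables. Cnot9, a subunit that binds RNA-bound repressors, rose by 2.05 and 2.00 (adjusted p = 2.50e-05 and 2.39e-06). Cnot11 rose by 0.82 and 0.70, and Pabpc1, the cytoplasmic poly(A)-binding protein, by 0.76 and 1.14. Cnot2, a subunit of the deadenylase complex, had log2 fold changes of -0.80 and -0.74 (adjusted p = 0.0426 and 0.0302). On each allele Cnot2 lost its call in 4 of 6 fits that left out a sample. On the 129 allele so did Cnot1 in 4 and Cnot6 in 3.

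Kinases and cyclins bound by the CDK inhibitors mostly rose. All 8 tested in the 129 tables were called, 7 higher and 1 lower (median 2.52), and of 7 in the Cast tables, 6 were higher and 1 lower (2.33). Ccne2 (cyclin E2), a direct target of p27, rose from 1.45 ± 1.30 to 99.4 ± 35.3 CPM on the 129 allele and from 2.42 ± 0.866 to 90.8 ± 18.8 CPM on the Cast allele (SD, n = 3; adjusted p = 0.000168 and 1.34e-06). Ccna2 and Ccne1 rose by 5.01 and 4.18 on the 129 allele and by 5.44 and 4.03 on the Cast allele, the Ccna2 call on the 129 allele being lost in 5 of 6 fits that left out a sample. Ccnd3 (cyclin D3) fell, with log2 fold changes of -1.5 on the 129 allele and -4.54 on the Cast allele.

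Of the genes that remove p27 protein, 3 of 7 were higher and 1 lower in the 129 tables (median 0.69), and 3 of 6 higher and 1 lower in the Cast tables (0.52). Cks1b, the cofactor through which the SCF ubiquitin ligase reads phosphorylated p27, rose from 6.40 ± 2.77 to 118 ± 22.8 CPM on the 129 allele and from 6.79 ± 1.64 to 106 ± 20.5 CPM on the Cast allele (SD, n = 3; adjusted p = 4.23e-05 and 1.57e-06). Cul1, the ligase scaffold, rose by 0.76 and 0.52, and lost its 129 call without stimulated replicate 3 (adjusted p = 0.0523). Xpo1, the exportin, rose by 0.88 and 0.89, and its 129 call was lost with upper-quartile scaling (adjusted p = 0.0687) and in 4 of 6 fits that left out a sample. Rnf123, a subunit of the ligase that acts on p27 in the cytoplasm in G1, fell (log2 fold changes -1.07 and -1.05).

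Around Txnip, 2 of 5 genes were higher and 1 lower in each set of tables, with medians of 0.34 and 0.53. Mlxip (MondoA), the glucose-sensing factor that drives Txnip transcription, fell from 190 ± 64.7 to 60.1 ± 1.92 CPM on the 129 allele and from 179 ± 55.4 to 53.6 ± 5.76 CPM on the Cast allele (SD, n = 3; adjusted p = 0.00116 and 0.000178). Txn2, the mitochondrial thioredoxin, rose by 1.18 and 0.90 and was the only gene of this list called higher in both sets. Txn1, a thioredoxin gene, went from 6, 12 and 5 naive reads to 68, 54 and 56 stimulated reads on the 129 allele. On the Cast allele it went from 13, 10 and 19 to 29, 21 and 28 reads.

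Btg2 belongs also to the early response genes, which are switched on within minutes of a stimulus. Of 16 tested in the 129 tables, 15 were called lower and 1 higher (median -2.96), and of 16 in the Cast tables, 14 were lower and 1 higher (-3.01). Of the lower 129 calls, Jun, Jund and Egr2 were lost in 5, 4 and 2 of 6 fits that left out a sample, and of the Cast calls Nr4a1 was lost in 1. Against a floor of 3 reads per library, Fos was at least 50.4-fold lower in the 129 tables and 56.0-fold lower in those of Cast. Klf4 was at least 10.9-fold lower in the 129 tables and 9-fold lower in those of Cast. Dusp1, a phosphatase of MAP kinases, fell (log2 fold changes -5.26 and -6.10). Atf3, a stress-induced factor, rose by 4.74 and 3.93.

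**Figure D5:**
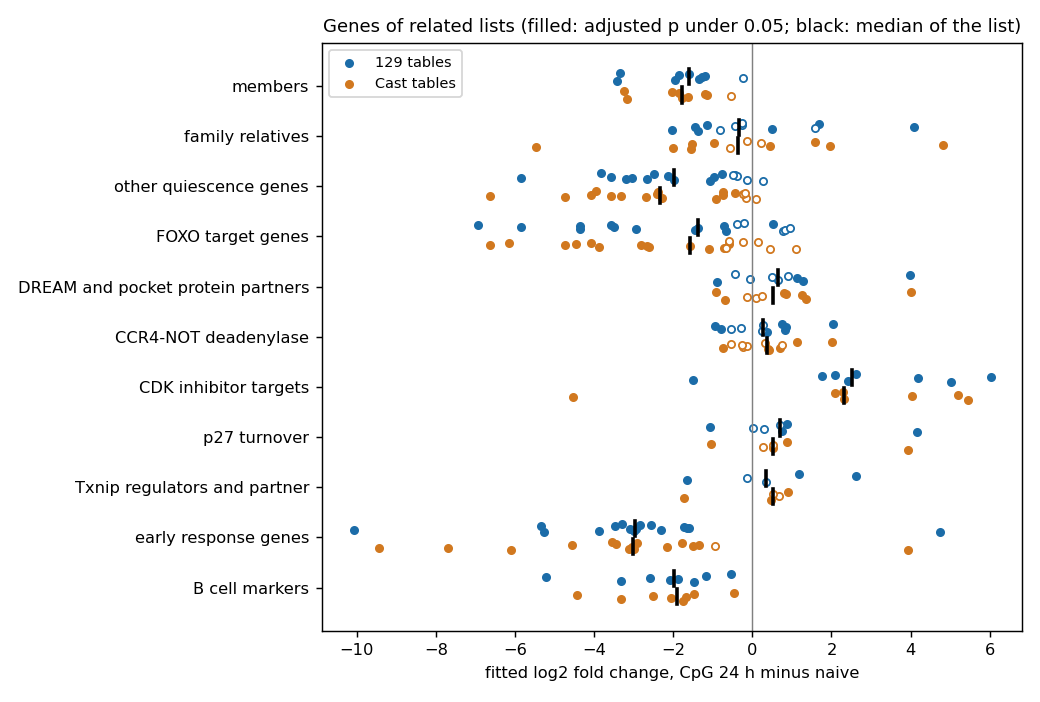
Fitted log2 fold change, CpG 24 h minus naive, of the tested genes of each list in the 129 tables (blue) and the Cast tables (orange); filled points were called, open points were not, and black marks are medians. The 9 genes (medians -1.60 and -1.78), the other quiescence genes (-1.97 and -2.34) and the early response genes (-2.96 and -3.01) lie mainly left of 0. So do the B cell markers (-1.98 and -1.90). The CDK inhibitor targets (2.52 and 2.33) lie mainly right of it.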

How the data were processed

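RNA was made into stranded total RNA libraries (TruSeq), per the labels' protocols. The authors deposited, for each of the 6 samples, a table of raw counts of reads per gene for each strain's annotation. STAR and featureCounts of Subread 2.0.0 and the build mm10 are named in the submitters' processing notes, while the tables end in totals of the kind that htseq-count writes, per the file contents. How reads were assigned to a strain and whether strand was used are not given in the sources used here. These totals stayed out of library sizes and tests: reads outside genes were 44.5% to 67.1% and ambiguous reads 0.948% to 1.71% of aligned reads. Genes without a name held 5.10% to 19.7% of gene reads. The other 12 samples of the series were not analysed here.

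Stimulated and naive samples were compared with edgeR 4.0.16 (R 4.3.3), by TMM normalisation, filterByExpr, robust quasi-likelihood fits over all genes of a table and Benjamini-Hochberg adjustment. CPM values are these counts scaled to a common total after TMM. Allele ratios were fitted over the 10089 autosomal genes, of 28374 names matched between the tables, that had 10 or more reads, alleles summed, in 3 samples, with a term for each sample and a library size shared by its alleles. Neighbours in the order of falls were compared by exact permutation (scipy 1.17.1). The code was tested on simulated data. Whether replicate numbers pair the samples is not given in the sources used here, and the main fits did not pair them. Across genes, deviations from the group means of same-numbered naive and stimulated samples correlated at 0.560, 0.443 and 0.608 in the 129 tables. In the Cast tables they correlated at 0.228, 0.163 and 0.246. The source of these correlations was not tested. The alternatives were DESeq2 1.42.0, other scalings and filters, minimum fold changes, the replicate block, the alleles summed and leaving out each sample.

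The genes and lists were chosen with earlier results of these data known. All 10 genes were to be named, and from each other list up to 3 genes with the largest rise and 3 with the largest fall in the 129 tables among those called in the same direction in both tables, besides genes that a result turns on. Some of these are given by count alone, and some are not reported here. Overlapping genes were read from the GENCODE M21 annotation (GRCm38).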

Additional observations from a re-analysis of the deposited data

Results flagged for a closer look

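None of the 9 genes had a change of its allele ratio that passed the threshold, but genes of the other lists did, and 4 of them are given here, each because the fall or rise with CpG differed between the alleles in edgeR's test. Ccnd3 (cyclin D3) lost its Cast reads: the Cast share was 55.9%, 50.5% and 54.7% in naive samples and 10.6%, 13.4% and 13.0% in stimulated ones, a change of the log2 ratio of -3.04 (adjusted p = 0.000654) that was called also in each fit without a sample (adjusted p up to 0.0158).

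The changes of the other genes were toward Cast. Irf4, a B cell and plasma cell transcription factor, changed by 0.63 (adjusted p = 0.0323), from shares of 67.3% to 68.3% to shares of 75.7% to 77.3%. Jchain, the joining chain of secreted antibody, changed by 0.89 (adjusted p = 0.0489), and the macrophage marker Adgre1 by 1.58 (adjusted p = 0.0380) on 17 to 20 reads per stimulated sample. The calls of Irf4, Jchain and Adgre1 were lost in each of the 6 fits that left out a sample.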

How the results depend on the processing

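The 8 genes kept their calls on both alleles under DESeq2 (Wald test), upper-quartile scaling, the gene total alone, no count filter, summed alleles and each fit that left out a sample. With at least 50 reads in 3 samples Tob1 in the 129 tables and Cdkn2d in both gave no value. Against a minimum log2 fold change of 1, 6 of the 9 were called lower in each set of tables, and over all genes 2525 rather than 5842 were called for 129 and 2827 rather than 6445 for Cast, since that test asks for more. Upper-quartile scaling moved the median log2 fold change of all genes to -0.16 for 129 and -0.17 for Cast. In the fits with the replicate block, 6884 genes were called for 129 and 6868 for Cast. The change of the allele ratio was then called for 785 genes rather than 102. The block changed no call of the 9 genes. Leaving out a sample gave 15 to 29 genes called for that change, from fewer samples. Against a minimum log2 ratio of 0.5 the ratio was called for 1254 genes rather than 2445 in naive cells and for 1311 rather than 2469 in stimulated cells. Leaving out a sample gave 1563 to 2327 in naive cells, the lowest without naive replicate 2. When each strain's tables were scaled by their own total, 1 of the 9 genes (Foxp1) rather than 0 was called toward 129 in naive and 1 in stimulated cells. Without stimulated replicate 1 the naive ratio of Tob1 (0.76) just passed the threshold. Depth limits Cdkn2d, Tob1 and Txnip most. No value of the 9 genes past its threshold changed sign.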

Other observations

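Genes of antibody-secreting cells were not called in a common direction. Of 6 plasma cell markers 4 were tested in each set of tables, with 2 called higher and 2 lower in the 129 tables and 2 higher and 1 lower in the Cast tables. The 129 call of Irf4, lower, was lost in 3 of 6 fits that left out a sample. Prdm1 (BLIMP1), the factor that starts plasma cell differentiation, rose from 1.13 ± 0.977 to 14.6 ± 7 CPM on the 129 allele and from 3.88 ± 1.93 to 20.4 ± 6.07 CPM on the Cast allele (SD, n = 3; edgeR adjusted p = 0.00489 and 0.000737). Xbp1, the regulator of secretory capacity, rose by 1.16 and 0.87 on the log2 scale, while Jchain fell (-2.39 and -1.47). Among T cell markers Cd4 was listed with 0 reads in the stimulated samples of the 129 tables, beside 30.7 ± 9.34 CPM in naive samples. Cd3d, Cd3e, Cd3g, Cd8a and Cd247 had only 0 to 6 reads in each of those naive samples. Cd5 had 16, 22 and 7 reads there and Lck 12, 33 and 22. Lck still had 11, 25 and 13 reads in the stimulated samples. On the Cast allele the naive samples had 124, 61 and 61 reads of Cd4, 13, 7 and 14 of Cd3d and 19, 26 and 14 of Lck. Which cell type gave the Cd4 reads was not tested. Of 6 erythroid markers 2 were tested for 129 and 1 for Cast, and all of these were called lower.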
